A study of Mus musculus with 4 samples.

Results

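Of the 6482 peaks called in a Dzip3 ChIP-seq library of mouse embryonic stem (mES) cells, 1165 (18%) overlapped a Ring1B peak and a ubH2A peak and no peak of the input DNA. These 1165 regions, called the shared peaks here, were chosen from the listed percentage of each Dzip3 peak that lies under a peak of another library: above 0 for Ring1B, above 0 for ubH2A and 0 for input DNA. The overlaps, and the reads behind them, are therefore described and not tested. What the choice did not use is the position of the regions relative to genes and the DNA sequence under them.

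Ring1B is the catalytic RING-finger subunit of Polycomb repressive complex 1 (PRC1), which attaches ubiquitin to histone H2A, and ubH2A is the product of that reaction. Dzip3 is another RING-finger E3 ligase that can ubiquitylate H2A. In mES cells PRC1 is best known for its place at CpG-rich promoters of developmental genes, which it keeps silent until differentiation. Sites that carry Dzip3, Ring1B and ubH2A together are thus where both ligases and their common product were mapped to the same DNA.

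The data came from E14 mES cells, a 129/Ola line, at passage 3 to 5, grown without feeder cells in N2B27 medium with the MEK inhibitor PD0325901 (1 μM), the GSK inhibitor CHIR99021 (3 μM) and LIF (1000 U/ml). After 10 min of fixation in formaldehyde (1%), 4 libraries were made: Dzip3 ChIP, Ring1B ChIP and ubH2A ChIP, with rabbit antibodies raised by the authors, and input DNA. All cells were unmanipulated, each target had 1 library, and no knockdown or IgG library was analysed here. No value therefore has a replicate error, and the intervals given cover counting error only.

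The 4 libraries held 48.3 to 67.04 M reads, as implied by the listed peak heights. This is above the depth of uniquely mapped reads given in the methods, and whether the listed reads were all uniquely placed is not known, so RPKM values rest on the implied totals. The shared peaks were compared with the other Dzip3 peaks that overlapped no input peak. Of these, 763 overlapped Ring1B peaks only, 445 overlapped ubH2A peaks only and 2382 overlapped neither. A further 1382 Dzip3 peaks overlapped Ring1B, ubH2A and input peaks together.

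Most of the shared peaks lay on DNA with stretches that occur more than once in the mouse genome. To measure this, the central 200 bases of every Dzip3 peak were cut into overlapping stretches of 31 bases (words), and each word was counted on both strands of the whole mm9 genome. In 973 shared peaks (83.5%, 95% Wilson interval 81.3 to 85.5), 50% or more of the words occurred more than once in the genome. The share was 74.3% for peaks with Ring1B only, 61.1% with ubH2A only, 36.3% with neither and 63.7% over all Dzip3 peaks. The difference from the peaks with neither was 47.2 percentage points (interval 44.3 to 50), and from those with Ring1B only 9.21 points (5.49 to 13.0). Among the stronger 50% of the Dzip3 list, the difference from Ring1B only was 3.22 points, and its interval contained 0 (-1.18 to 8.01). Among the 1382 peaks that also overlapped input, the share was 84.2%, and the difference from the shared peaks had an interval that contained 0 (-3.53 to 2.22 points). Only 33 shared peaks (2.83%) had no repeated word, against 16.9% of all Dzip3 peaks. The median word of a shared peak occurred 16 times (quartiles over peaks 3 and 2734).

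The sequences of the strongest regions are shown because they are the clearest case. Each line gives the central 120 bases of a peak, on the plus strand of mm9. Capitals mark bases inside a 31-base word that occurs more than once in the genome, and lower case marks bases that do not.

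Strongest peak, 32.5 kb from Gm14744, chrX:75142694-75142813: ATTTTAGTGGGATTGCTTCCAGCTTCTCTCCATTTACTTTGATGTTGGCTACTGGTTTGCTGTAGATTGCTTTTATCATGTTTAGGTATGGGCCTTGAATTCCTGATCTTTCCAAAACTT

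Peak of rank 9, 189 kb from Elavl2, chr4:90732259-90732378: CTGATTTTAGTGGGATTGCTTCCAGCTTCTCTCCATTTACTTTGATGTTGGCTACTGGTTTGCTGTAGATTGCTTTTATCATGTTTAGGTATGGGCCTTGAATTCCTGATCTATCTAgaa

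Peak of rank 2, 12 kb from 1700034J04Rik, chr12:11241217-11241336: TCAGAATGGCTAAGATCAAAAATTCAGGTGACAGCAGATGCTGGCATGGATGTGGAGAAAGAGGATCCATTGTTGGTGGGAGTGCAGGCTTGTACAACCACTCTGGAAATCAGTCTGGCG

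Peak of rank 4, 46.4 kb from Tbca, chr13:95512273-95512392: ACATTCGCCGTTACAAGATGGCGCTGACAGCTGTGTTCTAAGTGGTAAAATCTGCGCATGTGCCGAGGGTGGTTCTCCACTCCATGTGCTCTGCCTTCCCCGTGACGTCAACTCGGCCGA

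Peak of rank 7, 468 kb from Gm1140, chrX:64478774-64478893: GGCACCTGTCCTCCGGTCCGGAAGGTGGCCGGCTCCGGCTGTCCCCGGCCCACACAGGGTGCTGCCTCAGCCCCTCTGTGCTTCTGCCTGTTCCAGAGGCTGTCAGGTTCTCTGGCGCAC

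Peak of rank 3, 8.32 kb from Hhex, chr19:37519682-37519801: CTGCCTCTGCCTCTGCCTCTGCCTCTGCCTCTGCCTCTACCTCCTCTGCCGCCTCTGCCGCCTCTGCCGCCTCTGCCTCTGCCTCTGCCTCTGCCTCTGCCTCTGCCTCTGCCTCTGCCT

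Mostly unique DNA in the coding exon of Rrs1, shown for contrast, chr1:9535691-9535810: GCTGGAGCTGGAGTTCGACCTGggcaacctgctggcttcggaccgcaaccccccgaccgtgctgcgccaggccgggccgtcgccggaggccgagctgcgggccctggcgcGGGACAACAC

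The peaks beside Gm14744 and Elavl2, on different chromosomes, shared an identical run of 146 bases. Words of the strongest peak occurred a median of 10956.5 times in the genome, and 9 of the 10 strongest peaks were made of such high-copy DNA. The other, beside Hhex, was a run of the unit AGAGGC read on the other strand. The Rrs1 peak, named after its values were seen, had 32 capital bases of 120.

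By these measures the shared peaks were sorted into 4 kinds, with cut-offs set after the sequences had been examined. Tandem arrays were peaks in which at least 80% of bases equalled the base 1 period further on, for a period of up to 100 bases. High-copy peaks had a median of at least 100 genome copies per word. Low-copy peaks had 50% or more repeated words with fewer copies, and the remainder was called mostly unique. There were 241 tandem arrays (20.7%), 431 high-copy peaks (37.0%), 327 low-copy peaks (28.1%) and 166 mostly unique peaks (14.2%). Over all Dzip3 peaks these shares were 13.6%, 21.1%, 30.9% and 34.4%.

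**Figure D1:**
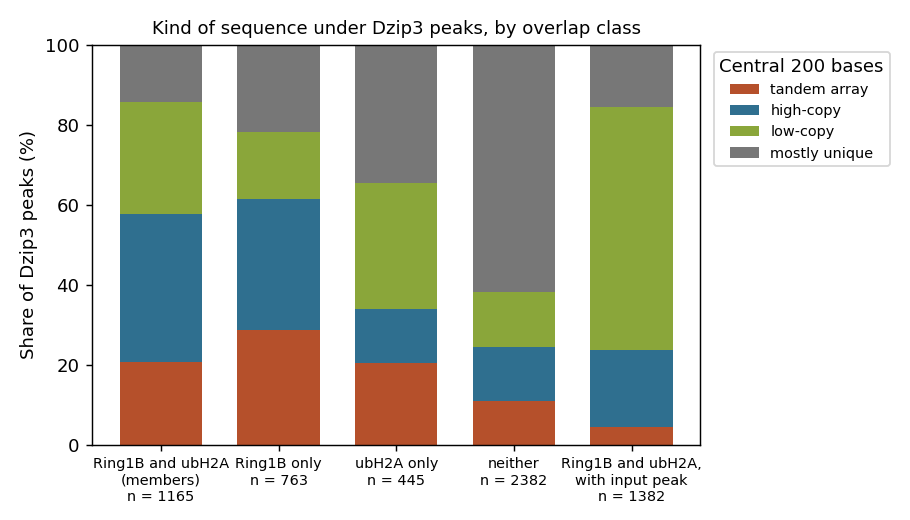
Share of Dzip3 peaks (y axis, percent) of each kind of sequence, for the shared peaks, the 3 other classes without an input peak, and the peaks that overlapped Ring1B, ubH2A and input. Mostly unique DNA made up 14.2% of the shared peaks and 61.8% of the peaks with neither Ring1B nor ubH2A, while low-copy DNA made up 60.9% of the class with an input peak.

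High-copy DNA set the shared peaks apart from peaks with ubH2A only (13.5%, a difference of 23.5 points, interval 19.1 to 27.5) and from those with neither (13.4%). It did not set them clearly apart from peaks with Ring1B only, at 32.8%, where the interval of the difference was -0.135 to 8.52 points. Tandem arrays were less frequent among the shared peaks than among those with Ring1B only (28.6%, difference -7.88 points, interval -11.9 to -3.96). They were more frequent than among the 1382 peaks with an input peak, at 4.49%.

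Most peaks of the first 3 kinds sit where short reads can match several places, and the alignment allowed 1 mismatch. Tandem arrays were called by period alone, and their share of repeated words ran from 0% to 100% (lower quartile 71.2%). How many reads of these regions were placed wrongly was not tested. Median input reads, which the rule holds down by leaving out peaks with an input peak, were 9 in tandem arrays, 9 in high-copy peaks, 17 in low-copy peaks and 11 in mostly unique peaks.

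Reads in the shared peaks were of similar size in the 3 ChIP libraries. The median peak held 112 Dzip3 reads (quartiles 83 and 168), 111 Ring1B reads (80 and 176), 106 ubH2A reads (80 and 152) and 12 input reads (5 and 20). Scaled as RPKM, a read density corrected for peak length and library size, the medians were 6.67 for Dzip3, 7.07 for Ring1B, 5.33 for ubH2A and 0.750 for input. On this scale the input, limited by the rule, was below all 3 ChIP libraries in 1164 shared peaks, against 86.7% of all Dzip3 peaks. Dzip3 was the highest library in 519 shared peaks (44.5%, against 69.7% of all Dzip3 peaks), Ring1B in 508 (43.6%, against 19.3%) and ubH2A in 138 (11.8%, against 11.0%). The rule required a Ring1B and a ubH2A peak, so these contrasts with all Dzip3 peaks follow in part from the choice. In the peaks with neither, Dzip3 held a median of 70 reads beside 28 for Ring1B and 28 for ubH2A.

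**Figure D2:**
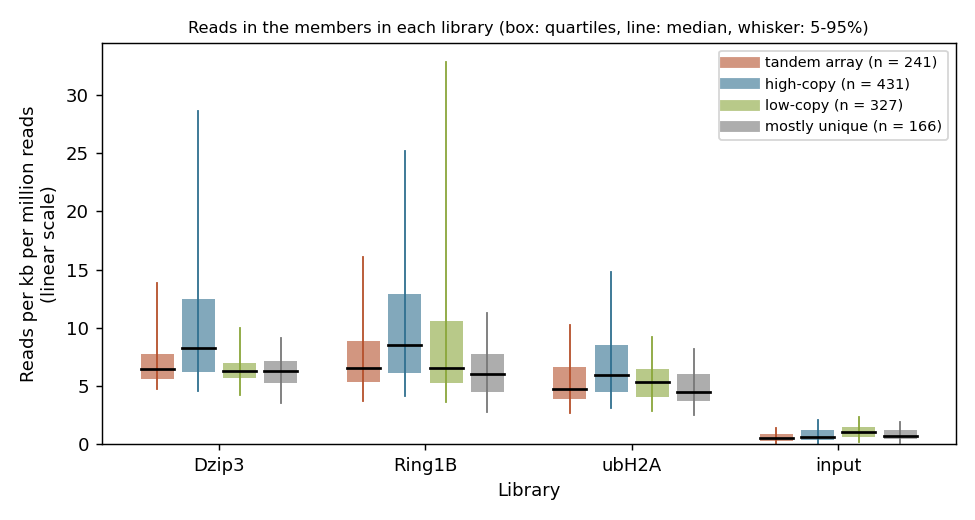
RPKM (y axis, linear) in the shared peaks in each of the 4 libraries (x axis), by kind of sequence. Boxes span the quartiles, black lines the median and whiskers the 5th to 95th percentile over peaks. High-copy peaks reached the highest Dzip3 values, with a median of 8.30 against 6.28 in mostly unique peaks, and the input, limited by the rule, was lowest in every kind.

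Of the shared peaks, 49 held 0 input reads (6.43% of all Dzip3 peaks did), and for these the listed fold is the Dzip3 count plus 1. Over the other 1116 the fold over input had a median of 8.60 (quartiles 4.94 and 16.4). With the 49 included, the median was 8.99 and the listed fold was at least 2 in 1162 peaks, against 82.9% of all Dzip3 peaks. The rule leaves out peaks with an input peak, so this contrast follows in part from the choice. One peak, in an intron of Smarca4 (chr9:21433257-21433475), was listed with 8 Dzip3, 9 Ring1B, 23 ubH2A and 15 input reads and a fold of 0.505. Its height of 1.24 RPM stands for more reads than its listed total, as in 4 shared peaks altogether, so these totals are doubtful.

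The shared peaks were short, with a median length of 308 bases (quartiles 228 and 377), and covered 390 kb. Peaks with Ring1B only had a median of 253 bases and those with neither 215. Length is not independent of the choice, since overlap was required. The Dzip3, Ring1B and ubH2A peaks lay on top of each other. Ring1B peaks covered a median of 96.6% of the Dzip3 peak, ubH2A peaks covered 94.1%, and 1057 shared peaks were covered to at least 50% by both. The centres of the Dzip3 and Ring1B peaks were a median of 32.5 bases apart. For ubH2A the distance was 37.8 bases, over the 1038 peaks whose partner was in the rows analysed.

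At the edge of the rule, the shared peaks with the least Ring1B cover were chr16:75305902-75306319 (0.480%), chr5:117235114-117235384 (3.70%) and chr15:97458392-97458618 (5.75%). The nearest peaks left out for lack of Ring1B ended 6, 7 and 10 bases from a Ring1B peak. With the least ubH2A cover, chr5:117235114-117235384 (0.370%), chr7:9767710-9767950 (0.417%) and chr13:58447933-58448145 (10.8%) were inside. The nearest peaks outside lay 2, 7 and 14 bases from a ubH2A peak. Just outside on the input side, 3 peaks were covered by input peaks to 0.673%, 0.830% and 2.16%, with 17, 6 and 36 input reads.

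Across the shared peaks, Dzip3 and Ring1B reads per kb rose together with a Spearman rho of 0.54, and Dzip3 and ubH2A with 0.44 (n = 1165 peaks of the same libraries, given as a description). The high-copy peaks showed the closest relation of Dzip3 to Ring1B, with a rho of 0.71, and the tandem arrays the loosest, with 0.31. Dzip3 and input, whose range the rule limits, had a rho of -0.01. By kind this rho was -0.11 in high-copy peaks, 0.11 in tandem arrays, 0.14 in low-copy peaks and 0.15 in mostly unique peaks.

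**Figure D3:**
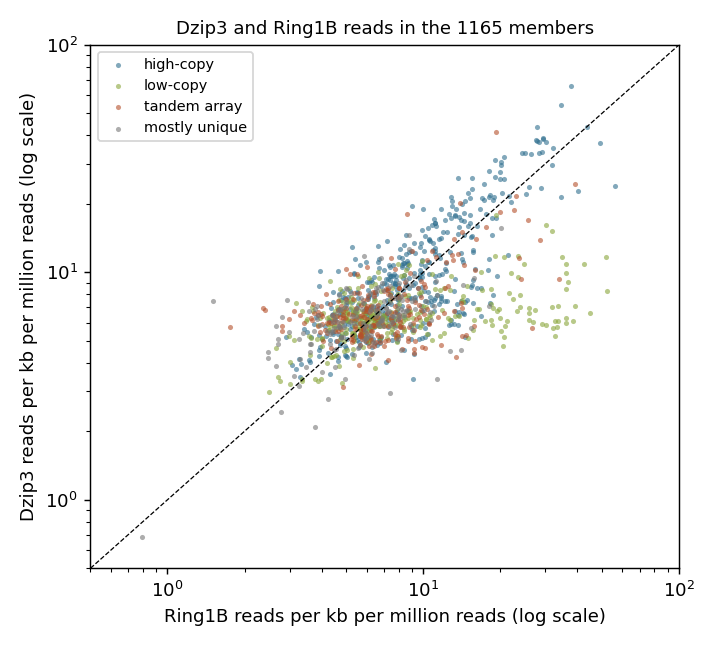
Dzip3 (y axis) against Ring1B (x axis) RPKM in the 1165 shared peaks, both on log scales, coloured by kind of sequence, with the dashed line marking equal values. High-copy peaks follow the line to the highest values, and a group of low-copy peaks lies to the right of it, with Ring1B at least 3 times Dzip3.

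In 40 shared peaks the Ring1B reads, scaled to library size, were at least 3 times the Dzip3 reads (3.43%, against 1.36% of all Dzip3 peaks). Of these 40, 35 were low-copy DNA and their median GC content was 63.75%. They held a median of 523.5 Ring1B, 107.5 Dzip3, 142 ubH2A and 16.5 input reads. They were gathered in few places. A 1 Mb window of chromosome 6 near Ezh2 and Pdia4 held 18, and a window of chromosome 8 near Gas8 and Rhou held 14. The opposite, Dzip3 at least 2 times Ring1B, was met by 24 shared peaks (2.06%, against 28.7% of all Dzip3 peaks), each in its own 1 Mb window. Both contrasts with all Dzip3 peaks depend on the rule, which required a Ring1B peak.

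The chromosome 6 group is described in full because it lies near a Polycomb gene. It consisted of 28 shared peaks between 47604263 and 47723243 on chromosome 6, with a median of 16 genome copies per word. Of these, 17 had Ezh2 as the nearest gene, at 58.9 to 90.5 kb from its start, and 11 had Pdia4, at 40.3 to 72.6 kb. Ezh2 encodes the methyltransferase of Polycomb repressive complex 2, and Pdia4 a protein disulfide isomerase of the endoplasmic reticulum. All 28 were intergenic, so none was in either gene. The 28 peaks held 143 to 1792 Ring1B reads (median 565.5), 69 to 456 Dzip3 reads (median 149), 57 to 399 ubH2A reads (median 158.5) and 3 to 47 input reads (median 24). The lowest Ring1B value was above the highest input value, a gap that the rule favours by requiring a Ring1B peak and no input peak. The window held 74 Dzip3 peaks in all, and groups of 15 and 9 of its shared peaks were joined by shared words. Of the 15, 7 contained the 60-base stretch shown next, where capitals mark bases that the 7 peaks have in common.

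Stretch held by 7 shared peaks near Ezh2 and Pdia4: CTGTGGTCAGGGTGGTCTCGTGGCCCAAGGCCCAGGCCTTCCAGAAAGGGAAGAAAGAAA

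The chromosome 8 group had 18 shared peaks among 35 Dzip3 peaks. It held 71 to 1620 Ring1B reads (median 373), 62 to 373 Dzip3 reads (median 87.5), 55 to 396 ubH2A reads (median 96.5) and 0 to 26 input reads (median 6). Gas8, a component of the regulatory complex of ciliary dynein, was the nearest gene to 9 of them, at 24.1 to 63.1 kb from its start. None of those 9 was intergenic, and the gene that held each is not given here. In 7 of the 18 the following stretch was found, with a median of 49 genome copies per word and capitals as in the stretch before.

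Stretch held by 7 shared peaks near Gas8 and Rhou: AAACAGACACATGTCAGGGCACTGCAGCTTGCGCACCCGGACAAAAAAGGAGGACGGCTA

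Beyond these windows, chromosomes 1, 17 and X carried dense groups. A window of chromosome 1 held 22 shared peaks among 154 Dzip3 peaks, most of them nearest to C130026I21Rik (12) and A530032D15Rik (9). There Ring1B and Dzip3 reads were alike, with medians of 97 and 100. On the X chromosome, Gm17379 was nearest to 16 shared peaks, at 11.4 to 211 kb, and these held a median of 166 Dzip3, 139 Ring1B, 162.5 ubH2A and 18.5 input reads. Tmem181b-ps was nearest to 9 on chromosome 17. Snrpn, an imprinted gene expressed from the paternal allele, was nearest to 10 shared peaks, at 99.8 to 218 kb from its start, with medians of 144 Dzip3, 135.5 Ring1B, 150.5 ubH2A and 26.5 input reads. None of the 10 was in a protein-coding gene, and other genes were not checked.

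In all, 246 shared peaks (21.1%) lay in 1 Mb windows with at least 20 Dzip3 peaks, against 24.1% of all Dzip3 peaks. Low-copy peaks made up 180 of the 246. When members less than 10 kb apart were joined, 957 loci remained, of which 876 held a single peak and the largest held 24. By chromosome, the density ran from 1.89 shared peaks per 10 Mb on Y to 8.36 on chromosome 6.

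**Figure D4:**
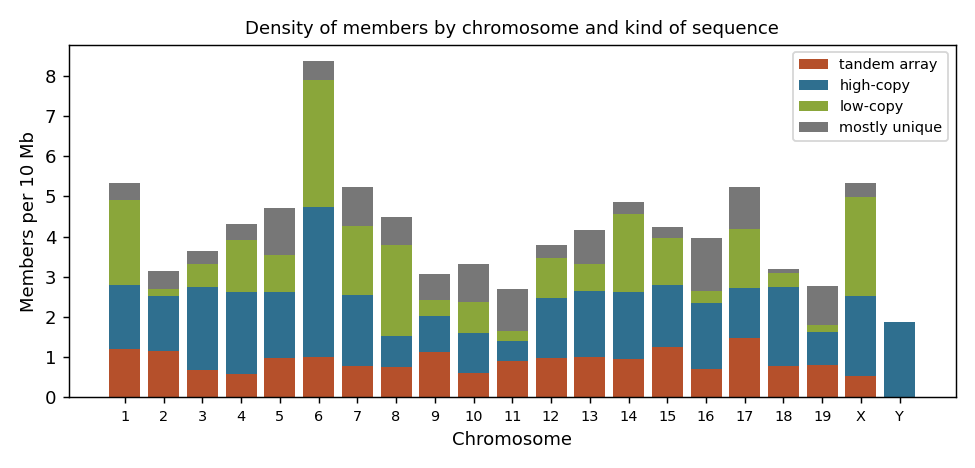
Shared peaks per 10 Mb of chromosome (y axis) for each mouse chromosome (x axis), stacked by kind of sequence. Chromosome 6, with 125 shared peaks, stands at 8.36 per 10 Mb, and high-copy peaks are present on all 21 chromosomes.

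Groups of peaks linked by shared words accounted for much of the set. Among the 924 shared peaks that were not tandem arrays, 557 (60.3%) shared at least 20 words with another, in 63 groups, and 367 shared fewer. The largest group joined 180 peaks on 21 chromosomes, with words of a median 9469.75 genome copies. It was a chain of links and not 1 sequence, and its commonest word was in 34 of the 180 peaks. The peaks of rank 2 and rank 6 by strength, both in it, shared no run longer than 8 bases. Peaks of this group held 37 to 871 Dzip3 reads (median 125.5), 31 to 648 Ring1B reads (median 116.5), 38 to 762 ubH2A reads (median 110.5) and a median of 9.5 input reads. They were far from protein-coding genes, at a median of 136 kb from a start site, and 36 of them were inside such a gene. A group of 32 peaks on 17 chromosomes was rich in GC, with a median of 64%, and held a median of 143.5 Dzip3, 178.5 Ring1B, 105 ubH2A and 4 input reads. The strongest member of that group, 468 kb from Gm1140, held 727 Dzip3, 943 Ring1B, 83 ubH2A and 1 input read. A stretch found in 10 of the 32 was also found in 11 peaks with Ring1B only and 6 with neither, so the same DNA occurred in several classes. It is shown in capitals for the same reason.

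Stretch held by 10 of the 32 GC-rich shared peaks: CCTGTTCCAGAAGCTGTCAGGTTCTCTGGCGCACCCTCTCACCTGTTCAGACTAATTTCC

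The 241 tandem arrays had units of many lengths. Periods of 1 to 6 bases were found in 53, of 7 to 20 bases in 43, of 21 to 60 bases in 127 and of 61 to 100 bases in 18. The commonest unit was AGAGGC, in 17 shared peaks, with a median of 176 Dzip3, 329 Ring1B, 104 ubH2A and 8 input reads. Of the 38 Dzip3 peaks with this unit, 9 had Ring1B only, 9 had neither and 0 had ubH2A only. ACAGC followed with 9 shared peaks, AGGC with 7, ACAGGC with 5, and AACCCT and ACACAG with 4 each. AGGC peaks held a median of 191 Dzip3 and 3 input reads. The 127 arrays with periods of 21 to 60 bases had 119 different units.

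The strongest tandem array, 8.32 kb downstream of the start of Hhex, held 865 Dzip3, 392 Ring1B, 104 ubH2A reads and 1 input read. Hhex encodes a homeobox factor of liver and thyroid development. The peak lay between protein-coding genes, and its reads in the Dzip3 and Ring1B libraries were far above those in ubH2A.

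Runs of the telomere repeat formed a small group. Mammalian telomeres consist of TTAGGG units, and copies also lie inside chromosomes. At least 3 TTAGGG units in a row, on either strand of the central 200 bases, were found in 26 shared peaks (2.23%, interval 1.53 to 3.25). The share was 1.30% of all Dzip3 peaks, 0.524% of peaks with Ring1B only, 0% with ubH2A only (0 of 445), 0.126% with neither and 3.69% of the 1382 peaks with an input peak. These 26 peaks were on 15 chromosomes, 19 were otherwise mostly unique DNA, and the longest runs held 6 to 14 units (median 11). Their Dzip3 reads ran from 49 to 285 (median 113.5), Ring1B reads from 40 to 240 (median 79.5), ubH2A reads from 44 to 189 (median 82.5) and input reads from 4 to 21 (median 13.5). No input value reached the lowest Ring1B value, which the rule favours by leaving out peaks with an input peak. Of the 10 strongest mostly unique shared peaks, 8 carried such a run somewhere in the peak. Among the 292 shared peaks with at most 5 input reads the share was 0.342%.

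The other letters searched on both strands of the central 200 bases gave shares near or below those of all Dzip3 peaks. CACACACA was in 14.5% of the shared peaks and 17.4% of all, GAGAGAGA in 2.32% and 2.82%, CGCGCG in 1.37% and 1.00%, and CACGTG in 3.61% and 4.13%. A single TTAGGG, which includes the runs, was in 5.92% and 5.85%. GC content was a median of 51.5% in the shared peaks, 50.5% in all Dzip3 peaks and 41.7% in the genome. Peaks with a CpG observed-over-expected ratio of 0.6 or more and a GC content of 50% or more, as in CpG islands, numbered 85 (7.30%), against 5.45% of all Dzip3 peaks.

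The shared peaks were mostly away from genes. The centre of 778 (66.8%) lay between protein-coding genes, 364 (31.2%) lay in introns, 17 in coding exons and 6 in non-coding exons. The share inside a gene was 33.2% (interval 30.6 to 36.0), against 42.5% with Ring1B only, 47.9% with ubH2A only, 50.8% with neither, 40.4% of all Dzip3 peaks and 38.8% of the sequenced genome. The difference from the peaks with neither was -17.6 points (-20.9 to -14.2). From the 1382 peaks that also overlapped input it was 5.07 points (1.48 to 8.67), so the shared peaks were not the lowest class.

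Within 4 kb of a protein-coding transcription start site (TSS), 100 shared peaks were found (8.58%, interval 7.11 to 10.3), against 13.3% of all Dzip3 peaks and 10.3% of sequenced bases. Within 1 kb there were 36 (3.09%), against 4.98% of all Dzip3 peaks. The 4 kb share was 10.7% with Ring1B only, 14.2% with ubH2A only and 15.8% with neither. The difference was -7.20 points from peaks with neither (-9.32 to -4.96) and -5.57 points from those with ubH2A only (-9.41 to -2.16). For Ring1B only the interval contained 0 (-4.98 to 0.496). Among the stronger 50% of the Dzip3 list, the interval for ubH2A only also contained 0 (-10.1 to 0.171). The median distance to a TSS was 47.8 kb, beside 36.8, 30.2 and 26.5 kb in the 3 classes, and 349 shared peaks (30%) lay more than 100 kb away, against 23.9% of all Dzip3 peaks.

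The distance from genes went with the kind of sequence. High-copy peaks had a median distance of 97.4 kb and 80.3% of them were intergenic. Tandem arrays had a median of 25.4 kb, and mostly unique peaks one of 28.8 kb. When the classes were compared within each kind, all 12 differences in the share within 4 kb of a TSS had intervals that contained 0. Mostly unique shared peaks, for instance, were within 4 kb in 16.9% (11.9 to 23.3), beside 20.1% of mostly unique peaks with neither. For the share inside a gene, 5 of 12 intervals did not contain 0. Of the mostly unique shared peaks, 42.8% were inside a gene, beside 55.7% with Ring1B only, 56.5% with ubH2A only and 59.7% with neither (difference from the last -16.9 points, -24.6 to -8.89). Peaks of a group share sequence or a locus and are not independent, which these intervals do not take into account.

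**Figure D5:**
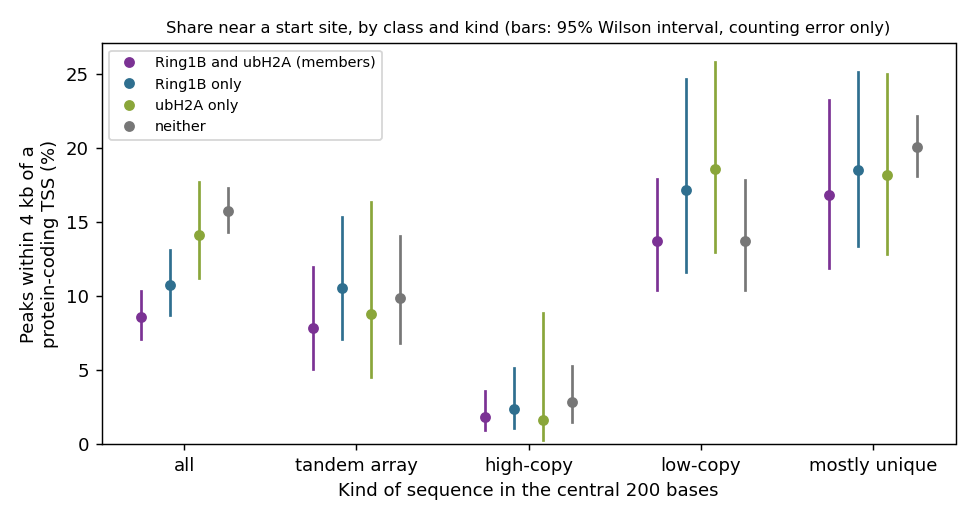
Share of peaks within 4 kb of a protein-coding TSS (y axis, percent) over all peaks and within each kind of sequence (x axis), for the shared peaks and the 3 other classes without an input peak, with 95% Wilson intervals for counting error. Over all peaks the shared peaks sit lowest at 8.58%, and within a kind the intervals of the classes overlap.

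The 100 shared peaks near a TSS had 85 different nearest genes. Of the peaks, 47 were upstream of the TSS, 41 downstream and 12 spanned it. The strongest lay in an intron of Dyrk4, which encodes a dual-specificity kinase, 2.77 kb from a TSS (chr6:126854509-126854762). It held 732 Dzip3, 453 Ring1B, 762 ubH2A and 14 input reads, on high-copy DNA. It was the only high-copy peak among the 5 strongest near a TSS.

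At Muc19, which encodes a gel-forming mucin, 3 neighbouring peaks on chromosome 15 spanned 91737386 to 91740853. They held 636, 631 and 594 Dzip3 reads, 2397, 1825 and 1921 Ring1B reads, 682, 577 and 569 ubH2A reads, and 73, 43 and 51 input reads. In each, Ring1B was the highest library and input, limited by the rule, the lowest. One spanned a TSS with its centre in a coding exon, and the words of the 3 peaks had medians of 7 to 8 genome copies. Beside Tmem125, a peak of 1729 bases (chr4:118219751-118221480) held 1393 Dzip3, 2836 Ring1B, 1577 ubH2A and 96 input reads, the largest total of Dzip3 reads in the set. The sequences of these loci are shown because their reads were high near a TSS. Gm11735 is added as a peak that met the tandem-array cut-off, and Dux as a repeated gene. The Tmem125 peak, counted as low-copy, also repeats a unit in the bases shown, without meeting that cut-off. Each line is the central 120 bases on the plus strand of mm9, with capitals for repeated words as before.

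Muc19, the peak that spans a TSS, chr15:91740277-91740396: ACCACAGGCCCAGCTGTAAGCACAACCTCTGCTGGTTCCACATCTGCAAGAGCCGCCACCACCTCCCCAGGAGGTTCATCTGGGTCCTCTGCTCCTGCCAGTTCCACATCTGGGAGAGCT

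Tmem125, 3.10 kb upstream of the TSS, chr4:118220555-118220674: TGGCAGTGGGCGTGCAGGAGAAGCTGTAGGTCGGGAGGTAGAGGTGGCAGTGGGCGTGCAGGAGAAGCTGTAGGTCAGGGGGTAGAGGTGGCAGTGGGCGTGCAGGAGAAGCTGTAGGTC

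Gm11735, in an intron, chr11:116607353-116607472: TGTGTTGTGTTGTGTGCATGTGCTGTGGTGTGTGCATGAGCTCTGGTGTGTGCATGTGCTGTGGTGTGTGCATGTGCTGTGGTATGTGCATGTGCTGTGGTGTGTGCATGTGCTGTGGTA

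Dux, spanning a TSS in a coding exon, chr10:57686007-57686126: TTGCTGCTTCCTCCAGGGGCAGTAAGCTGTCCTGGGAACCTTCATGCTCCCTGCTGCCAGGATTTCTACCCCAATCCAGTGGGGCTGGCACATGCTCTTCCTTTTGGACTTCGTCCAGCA

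Gm11735, a predicted gene, carried an array of an 18-base unit with 853 Dzip3, 946 Ring1B, 982 ubH2A and 76 input reads. Dux encodes a double-homeobox factor that switches on genes of the early cleavage embryo. Its gene is repeated in an array, so its reads can be split among copies. The peak that spanned a TSS of Dux held 259 Dzip3, 184 Ring1B, 281 ubH2A and 35 input reads. A second shared peak, 2.31 kb downstream, held 173, 241, 148 and 27. Cd163l1, a member of the scavenger receptor family, had 294 Dzip3, 307 Ring1B, 213 ubH2A and 17 input reads in an intron. The centre of the Cd163l1 peak was largely a run of AGAGGC, though the peak was counted as low-copy. Gm17621 and Gm2244, both predicted genes, had high-copy peaks of 274 and 246 Dzip3 reads with 5 and 8 input reads.

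Among the mostly unique DNA, 28 shared peaks lay within 4 kb of a TSS. The following were picked after their values were seen. Rrs1, a factor of ribosome assembly, carried a peak in its coding exon, 99 bases from the TSS, with 164 Dzip3, 266 Ring1B, 83 ubH2A and 6 input reads and 71% GC. Rbfox3, the neuronal splicing factor also called NeuN, had a peak 1.13 kb from a TSS with 119 Dzip3, 169 Ring1B, 114 ubH2A and 10 input reads. The centre of the Rbfox3 peak consisted largely of imperfect copies of short units such as CACAGG, below the cut-off for a tandem array. Of its central 120 bases, 55 were inside repeated words. St6galnac1, a sialyltransferase, had 2 peaks in an intron with 162 and 90 Dzip3 reads and 33 and 27 input reads. Across the 4 peaks the input, limited by the rule, was the lowest library each time.

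Shared peaks were also counted by 7 lists of genes. The nearest gene was a developmental transcription factor for 13 (1.12%), against 1.39% of all Dzip3 peaks and 1.09% of protein-coding genes. Of these, 5 (0.429%) were within 100 kb of the TSS, against 0.586% of all Dzip3 peaks. Among the other Dzip3 peaks without an input peak, 2.01% had such a nearest gene and 0.891% had it within 100 kb. Within 4 kb there were 0 of 1165, which allows a share of up to 0.258%, and the share of all Dzip3 peaks was 0.0463%. The 5 were beside Foxo1 (60.9 kb), Tbx15 (62.1 kb), Tbx22 (69.3 kb), Irx1 (74.2 kb) and Barhl2 (89.6 kb). The Tbx15 peak held 524 Dzip3, 467 Ring1B, 501 ubH2A and 4 input reads on high-copy DNA. At Tbx22 the DNA was mostly unique, and the peak held 97, 76, 91 and 3. Tbx15 and Tbx22 encode T-box factors of skeletal and palate development.

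For the ligands and receptors of the Wnt, Fgf, TGF-beta, Hedgehog and Notch pathways, the count was 9 (0.773%, against 0.633% of all Dzip3 peaks), with 4 (0.343%) within 100 kb and 0 within 4 kb. Over all Dzip3 peaks these shares were 0.478% and 0.0771%. The other Dzip3 peaks without an input peak had 0.808% at any distance, 0.669% within 100 kb and 0.139% within 4 kb. The 4 shared peaks within 100 kb were beside Notch3 (11 kb), Fzd9 (16 kb), Fgf9 (16.1 kb) and Fgf20 (83.9 kb). Notch3, a Notch receptor, had a tandem array upstream with 56 Dzip3, 146 Ring1B, 83 ubH2A reads and 1 input read. The Fgf20 peak, on high-copy DNA beside a gene for a growth factor of the ear and kidney, held 306 Dzip3, 174 Ring1B, 191 ubH2A and 8 input reads.

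Pluripotency factors were nearest to 1 shared peak (0.0858%, against 0.154% of all Dzip3 peaks and 0.251% of the others without an input peak). It was more than 100 kb from Tbx3, a gene also in the first list. Genes that the study names as targets or lineage genes were nearest to 2 shared peaks (0.172%). The shares were 0.0617% of all Dzip3 peaks and 0.0279% of the others without an input peak. Both shared peaks were more than 100 kb from Cdh2, which encodes N-cadherin and is also in the adhesion list. The list of Polycomb and H2A ubiquitin enzymes had 18 (1.55%, against 0.741% of all Dzip3 peaks and 0.306% of the others without an input peak). Of these, 17 were the repeated DNA near Ezh2, and 1 was in an intron of Pcgf3, a subunit of PRC1 variants, 6.19 kb from its TSS. The Pcgf3 peak held 60 Dzip3, 63 Ring1B, 75 ubH2A and 9 input reads on high-copy DNA.

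Cell adhesion and synapse genes, many of them long, were nearest to 44 shared peaks (3.78%, against 3.09% of all Dzip3 peaks). Of these, 10 (0.858%) were within 100 kb and 0 within 4 kb, where all Dzip3 peaks had 1.25% and 0.216%. The other Dzip3 peaks without an input peak had 3.51% at any distance, 1.75% within 100 kb and 0.362% within 4 kb. Clustered chemosensory and multigene families had 42 (3.61%, against 3.72% of all Dzip3 peaks and 7.82% of genes), with 35 (3.00%, against 3.30%) within 100 kb and 2 (0.172%, against 0.324%) within 4 kb. Those 2 were at Olfr806, an olfactory receptor, with 87 Dzip3, 152 Ring1B, 121 ubH2A and 21 input reads, and at Serpina3n, a protease inhibitor, with 77, 95, 97 and 5. The Olfr806 peak was among those with a run of TTAGGG, and the Serpina3n peak was a tandem array. In the other Dzip3 peaks without an input peak, these families had 2.48%, with 2.37% within 100 kb and 0.446% within 4 kb.

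Counted by gene, 851 protein-coding genes were nearest to a shared peak. Of these, 720 had 1 shared peak, 87 had 2 and 44 had 3 or more.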

How the data were processed

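ChIP-seq libraries of Dzip3, Ring1B, ubH2A and input DNA were analysed, 1 each. The authors aligned reads to mm9 with the Illumina pipeline (1 mismatch). Their peaks come from Partek software, with an FDR of 0.1. The methods name micrococcal nuclease for fragmentation, the labels a Picoruptor. The deposited lists hold read counts per peak, peak length, height as an RPM score, the ratio (fold) to input and the percent of the peak under peaks of other libraries. The listed fold is the count plus 1 where input has 0 reads. The ubH2A and input rows analysed here do not hold every peak behind the listed percentages (a ubH2A partner was found for 1038 of 1165 members), and 1 malformed row of each was left out, so overlaps were taken from the listed percentages.

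Genes came from GENCODE M1 (Ensembl 65) on the same build, and distances run from peak edge to TSS. Peaks named are the 10 strongest by RPM, the 10 strongest within 4 kb of a TSS and those there in a gene list, the 10 genes nearest to most members, and 3 at each threshold. A window of chromosome 6 and 2 genes in it are not reported here. Members, lists and rules were chosen with earlier results of these data known. No p-values were computed. Shares have Wilson and differences Newcombe intervals at 95%. The reference is the C57BL/6J strain, not 129/Ola. Calculations used Python 3.11.15, numpy 2.4.6 and numba 0.67.0, and functions were tested on simulated data.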

Additional observations from a re-analysis of the deposited data

How the results depend on the processing

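Each target had 1 library, so replicate error, antibody specificity and placement of reads in repeated DNA could not be assessed. No paired analysis was possible because each group had 1 sample. The soft-masked share of bases was not computed, because the genome used here is not soft-masked. Repeat families were not annotated.

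Of 77 alternative values, 46 stayed within the counting interval of the reported value (or within 1.5 times a count) and 31 did not. Requiring 50% cover by both libraries (1057 peaks) or autosomes and X only left each of the 11 values computed under it within its interval. So did joined loci for the number of peaks and the share near a TSS, and the strongest peak of each locus for the shares of repeated words and of tandem arrays. With at most 5 input reads, 292 shared peaks remained, 6.51% of them within 4 kb of a TSS, at a median distance of 55.6 kb, 37.0% in a gene, 26.7% tandem arrays, 0.342% with TTAGGG runs, and with medians of 52.25% GC, 255.5 bases, 365 Dzip3 reads per kb and a fold of 29.7 (25.6 without peaks of 0 input reads, added after the data were seen). In the stronger 50% of the list, medians were 331.5 bases, 393 Dzip3 reads per kb and a fold of 10.0. Without dense windows, medians were 50% GC, 361 Dzip3 reads per kb and a fold of 10.6, with 24.8% tandem arrays. The share near a TSS was 3.09% at 1 kb, 19.2% at 10 kb, 70.04% at 100 kb and 16% with all annotated genes, whose median distance was 22.5 kb. The genes numbered 85 within 4 kb, and 72 rather than 126 shared peaks were within 100 kb of a listed gene.

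Chosen after the data were seen, mostly unique peaks alone gave 16.9% within 4 kb, 28.8 kb and 42.8% in a gene. Repeated words at 80% gave 71.3%, and tandem arrays were 26.3% at 70% matching bases and 12.8% at 90%.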
